A study of Mus musculus with 8 samples.

Results

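The proteasome genes were taken as every gene whose symbol in the deposited tables begins with Psm, a letter from a to g and a number. The rule found 48 genes of 20696, with 47 of 19685 in the table of long-term hematopoietic stem cells (LT-HSC) and 48 of 18904 in that of multipotent progenitors (MPP). Of the 48, 45 are proteasome genes. The others are Psmc3ip, which encodes a recombination factor, and the pseudogenes Psmb6-ps and Psmb5-ps. Poly(A) RNA was sequenced as 50 bp paired-end reads in 8 libraries from mouse bone marrow, strain label CD57BL/6. Each population had 2 libraries of wild-type (WT) and 2 of Tet1 knockout (KO) origin, which makes 4 groups. All cells were flow sorted from mice that had received WT or Tet1 KO marrow 20 weeks earlier, at an age given as 6 months, with 10000 LT-HSC or 100000 MPP per library. The sources used here do not give the deleted part of Tet1, the sort gates or the number of animals per library. Replicates may therefore be technical, and the p-values below measure only how far these samples spread.

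The proteasome is the barrel-shaped protease that degrades proteins tagged with ubiquitin. Its 20S core stacks rings of alpha subunits (Psma genes) on rings of beta subunits (Psmb genes), and the catalytic sites sit on Psmb5, Psmb6 and Psmb7. The 19S cap, built from the ATPases of the Psmc genes and most of the Psmd genes, recognises and unfolds substrates. Interferon induces Psmb8, Psmb9 and Psmb10, which replace the catalytic subunits to form the immunoproteasome, a form that cuts peptides suited to MHC class I. It also induces Psme1 and Psme2, which form the PA28 activator. The Psmg genes and Psmd5, Psmd9 and Psmd10 encode chaperones that help assemble the particle and leave it. In blood stem cells, protein synthesis is kept low and protein quality control is known to matter for their maintenance.

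Of the immunoproteasome catalytic genes, Psmb8 was analysed, and Psmb9, Psmb10 and the thymus-specific Psmb11 were not analysed here. The 250 bases before the start site are shown for Psmb8, for its constitutive counterpart Psmb5, and for the assembly chaperone Psmg3, which had the highest fold change in LT-HSC. They come from the RefSeq promoter table on GRCm38.p6, a later build than the mm9 of the deposited tables. Capitals mark matches to searched motifs on either strand.
Psmb8: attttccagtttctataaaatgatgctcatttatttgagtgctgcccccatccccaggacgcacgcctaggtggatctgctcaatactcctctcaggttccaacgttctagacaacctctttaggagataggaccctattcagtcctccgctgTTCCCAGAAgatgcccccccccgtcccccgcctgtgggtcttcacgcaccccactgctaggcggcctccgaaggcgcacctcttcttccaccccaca
Psmb5: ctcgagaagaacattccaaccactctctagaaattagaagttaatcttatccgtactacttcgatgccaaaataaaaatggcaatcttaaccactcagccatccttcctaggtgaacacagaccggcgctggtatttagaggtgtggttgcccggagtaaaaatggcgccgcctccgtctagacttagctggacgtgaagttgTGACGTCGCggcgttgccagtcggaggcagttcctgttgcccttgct
Psmg3: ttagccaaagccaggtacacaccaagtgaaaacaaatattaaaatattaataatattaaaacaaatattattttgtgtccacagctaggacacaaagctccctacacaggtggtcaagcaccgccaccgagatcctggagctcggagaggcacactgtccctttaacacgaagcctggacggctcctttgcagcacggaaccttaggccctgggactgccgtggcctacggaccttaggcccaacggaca
The Psmb8 window is chr17:34197945-34198194 on the plus strand and holds TTCCCAGAA, a match to the gamma-activated site TTCNNNGAA, 97 bases before the start. The Psmb5 window is chr14:54617996-54618245 on the minus strand and holds TGACGTCGC, a match to the antioxidant response element core TGACNNNGC, 47 bases before the start. The Psmg3 window is chr5:139826895-139827144 on the minus strand and held no match to the motifs searched. The table matched 38 members with 41 windows of 300 bases (250 before to 50 after the start). The core TGACNNNGC was in 14.6% of the members' windows and in 12.4% of all 32851 windows. CCAAT, the NF-Y box, was in 31.7% and 37.4%, and TTCNNNGAA in 7.32% and 8.30%. The interferon-stimulated response element core, a GAAA run repeated after any pair of bases, was in 5 of 41 members' windows (12.2%) and in 3.44% of all windows. Those 5 belonged to Psme1, Psmd9, Psmg4, Psmb3 and Psmd4, and not to Psmb8. A match is a run of letters and was not tested as a site.

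Several features of the libraries bear on all comparisons between genotypes. Tet1 had 336 and 379 counts in LT-HSC KO and 332 and 428 in LT-HSC WT (log2 fold change -0.09, SE 0.19, edgeR adjusted p = 0.765). In MPP it had 765 and 855 counts in KO and 1207 and 1323 in WT (-0.62, SE 0.09, adjusted p = 0.0282). A count over the whole gene does not separate the LT-HSC genotypes, so KO means the libraries labelled KO. All 4 Y-linked genes checked were lower in KO in both populations, and sex and genotype cannot be told apart. In LT-HSC, all 11 erythroid genes tested were higher in KO, with a summed level of 4927 and 5896 CPM (counts scaled to library size) against 1334 and 1611 in WT. All 7 stromal genes were also higher, at 462 and 690 CPM against 23.0 and 26.9, and Bglap and Cxcl12 among them were listed at 0 in both WT libraries. All 4 megakaryocyte genes were lower, at 229 and 294 CPM against 629 and 834. All 20 long genes of neurons, a measure of background reads, were higher in LT-HSC KO. Their density was 0.384 and 0.438 counts per kb of gene span there, against 0.0853 and 0.0941 in LT-HSC WT. In MPP it was 0.144 to 0.156, as counts not scaled to the greater depth there. Scaled within each population, these genes summed to 414 and 451 CPM in LT-HSC WT and to 318 and 319 in MPP WT. Gene span runs from the first to the last base of a gene, introns included. At that density, background would make up 2.03% of the median member's count in LT-HSC KO and 0.456% to 0.536% in LT-HSC WT. This takes background as even over the span of each gene, which was not tested. The sources used here do not say whether reads in introns were counted. All 5 granulocyte and monocyte genes tested in LT-HSC were higher in KO, and that list summed to 39.4 and 41.9 CPM against 7.74 and 8.40 in WT. Of 7 B lineage genes in LT-HSC, 2 were higher and 3 lower in KO, at a summed 144 and 149 CPM against 264 and 316. In MPP, 5 of 11 erythroid, 4 of 7 B lineage and 4 of 6 granulocyte and monocyte genes tested were higher in KO, beside 4.74% of all genes. The last list summed to 1607 and 1641 CPM in MPP KO against 787 and 789 in MPP WT. The part of these differences in the results below was not tested, apart from the subtraction of background reads. As a check of the population labels, 6 of 8 LT-HSC markers were higher and 3 of 3 MPP markers lower in WT LT-HSC than in WT MPP. Between the genotypes in LT-HSC, 3 of the 8 LT-HSC markers were lower in KO (Ly6a, Vwf and Fgd5) and 0 higher. The shares over all genes were 10.9% lower and 22.5% higher. Of the 3 MPP markers, Flt3 was higher and Cd48 and Cd34 were lower in LT-HSC KO. The part of these marker differences in the results below was not tested either.

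The members together held 0.332% and 0.391% of all counts in LT-HSC WT and 0.326% and 0.367% in LT-HSC KO. In MPP they held 0.337% and 0.358% in WT and 0.305% and 0.321% in KO. Levels of different genes were compared only per transcript length, as CPM per kb. In LT-HSC WT, Psme1 was highest at 278 ± 144 (SD, n = 2) and Psmg3 lowest at 4.92 ± 1.37 CPM per kb. The core subunits did not share a level: Psmb2, a structural beta subunit, was at 140 ± 36.4 and Psma6, an alpha ring subunit, at 117 ± 10.2. The alpha ring genes Psma3 and Psma5 were at 7.93 ± 2.66 and 7.94 ± 3.49. The assembled ring holds equal numbers of each alpha protein. These levels depend on the length taken, that of the longest transcript: 2.85 kb for Psma3, 1.24 kb for Psma5 and 1.04 kb for Psma6. Which transcripts the cells used was not determined. The medians were 30.7 CPM per kb over the alpha ring genes, 65.2 over the structural beta genes and 69.2 over the constitutive catalytic genes. They were 43.4 over the 19S ATPases, 40.4 over the other 19S subunits and 12.2 over the assembly chaperones. The same medians in MPP WT were 33.3, 58.6, 61.1, 50.2, 44.9 and 14.9 CPM per kb.

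**Figure D1:**
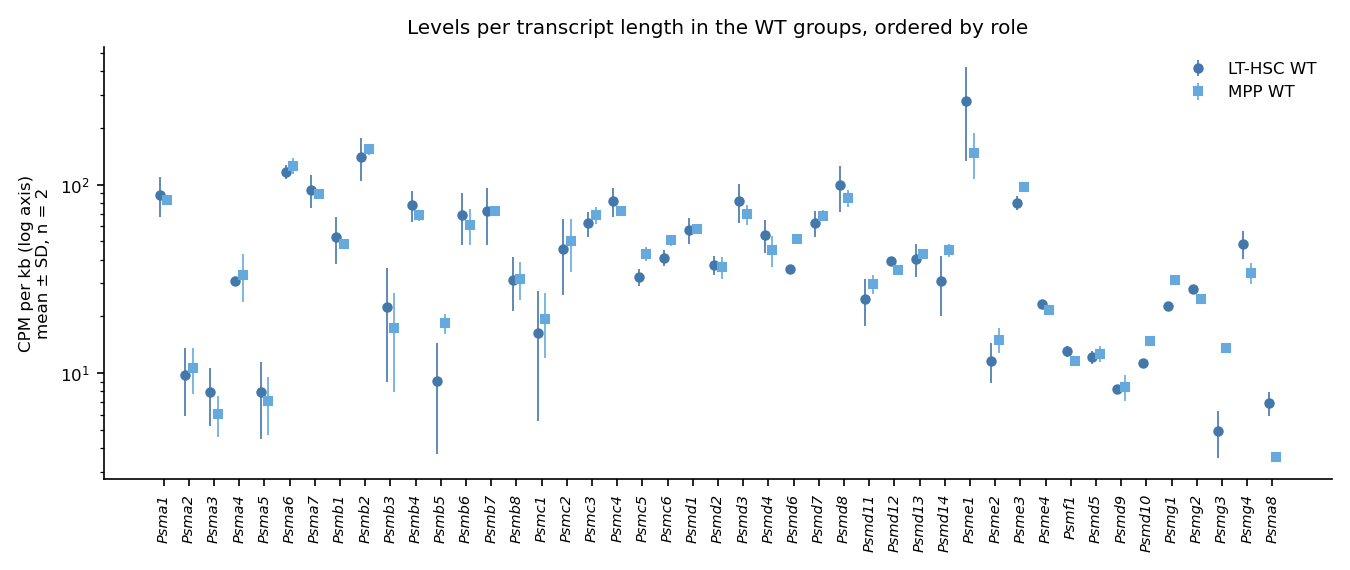
Level of each proteasome gene per kb of transcript (CPM per kb, log axis) in the WT groups of LT-HSC and MPP, mean ± SD of 2 libraries, ordered by role. Levels span from 4.92 for Psmg3 to 278 for Psme1 in LT-HSC WT, and the assembly chaperones lie mostly below the 20S and 19S subunits.

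At the catalytic beta positions, Psmb8 and Psmb5 differed in how they behaved. Per length, Psmb8 was at 31.3 ± 10.01 and Psmb5 at 9.08 ± 5.34 CPM per kb in LT-HSC WT, and at 10.7 ± 0.63 and 14.8 ± 5.28 in LT-HSC KO. In MPP, Psmb8 was at 31.7 ± 7.16 in WT and 30.2 ± 4.81 in KO, and Psmb5 at 18.4 ± 2.26 and 14.6 ± 0.37. Psmb8 was above Psmb5 in the mean of every group except LT-HSC KO, where their libraries overlapped. Psmb6 and Psmb7 were at 69.2 ± 21.4 and 72.1 ± 24.1 in LT-HSC WT and at 61.1 ± 13.3 and 72.2 ± 1.09 in MPP WT, with means above that of Psmb8 in both.

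The comparison of LT-HSC KO with LT-HSC WT asks which proteasome genes differ between the stem cell libraries labelled KO and WT. Psmb8 was lower in KO, the chaperone genes Psmg3 and Psmd9 were higher, and the chaperone gene Psmg4 was lower. No constitutive subunit of the 20S core or the 19S cap passed the test. In all, 2 of 47 members tested were higher and 2 lower, while 22.5% of all 15684 genes tested were higher and 10.9% lower, 33.4% together. The members' median log2 fold change was 0.06 and that of all genes tested 0.03. The members' share of calls was thus below the share over all genes in both directions, and their median close to that of all genes. Over the 3970 abundant genes (mean log2 CPM above 6) the median was lower, at -0.18. Members of that level were not set apart. In bulk samples, fewer cells of a type and less RNA per cell cannot be told apart.

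Psmb8 (ENSMUSG00000024338, chromosome 17, 34334666 to 34338399 on mm9) had 100 and 87 counts in LT-HSC KO and 341 and 205 in LT-HSC WT. After scaling these were 19.1 and 16.9 CPM in KO and 65.1 and 39.7 in WT, so the groups did not overlap. The log2 fold change was -1.54 (SE 0.28, edgeR adjusted p = 0.00367). The call held in every alternative run, with adjusted p from 4.00e-11 to 0.0285. With background reads subtracted the log2 fold change was -1.35 (adjusted p = 0.0242). The subtraction also changed the genes fitted and the scaling, and the median over all 47 members moved from 0.06 to 0.24. At the density above, background would make up at most 1.65% of a Psmb8 count. Psmb8 lies between Tap1, whose gene ends 495 bp upstream, and Tap2, which starts 2072 bp downstream, all on the plus strand. Tap1 and Tap2 encode the transporter that carries proteasome peptides into the endoplasmic reticulum. Tap1 had 570 and 519 counts in KO and 1300 and 1264 in WT (-1.23, SE 0.15, adjusted p = 0.000937), and Tap2 had -0.52 (SE 0.17, adjusted p = 0.0512).

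The constitutive catalytic genes did not pass the test in LT-HSC. Psmb5, the chymotrypsin-like subunit that Psmb8 replaces, was at 10.5 and 16.9 CPM in KO and 4.96 and 11.6 in WT, and the groups overlapped (0.72, SE 0.45, adjusted p = 0.262). Without LT-HSC WT replicate 2 the log2 fold change of Psmb5 was 1.43. That fit leaves replicate 1 as the lone WT library, and Psmb5 was lower in replicate 1 of both LT-HSC groups. Psmb6, the caspase-like subunit, was at 60.2 and 39.9 CPM in KO and 70.1 and 43.3 in WT (-0.18, SE 0.28). Psmb7, the trypsin-like subunit, was at 114 and 83.9 in KO and 108 and 64.2 in WT (0.20, SE 0.26). Without LT-HSC WT replicate 1, which leaves a lone WT library, the log2 fold change of Psmb7 was 0.60. The replicates of each group differed by more than the group means for Psmb6 and Psmb7. Psmb6 counts may be affected by its pseudogene Psmb6-ps, which had 30 and 16 counts in KO and 47 and 23 in WT, since how reads divide between near-identical copies is not stated.

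The ratio of Psmb8 to Psmb5 counts within a library needs no scaling between libraries. It was 1.82 and 1.00 in LT-HSC KO and 13.1 and 3.42 in LT-HSC WT. In MPP it was 4.11 and 3.39 in KO and 3.34 and 2.88 in WT. The KO libraries were thus both below the WT libraries in LT-HSC and both above them in MPP. The mean log2 ratio was 0.43 ± 0.61 (SD, n = 2) in LT-HSC KO and 2.74 ± 1.37 in LT-HSC WT, a difference of -2.31 (exact two-sided permutation test, p = 0.333). In MPP it was 1.90 ± 0.19 in KO and 1.63 ± 0.15 in WT, a difference of 0.27 (exact two-sided permutation test, p = 0.333). With 2 libraries against 2, 0.333 is the smallest p this test can give.

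**Figure D2:**
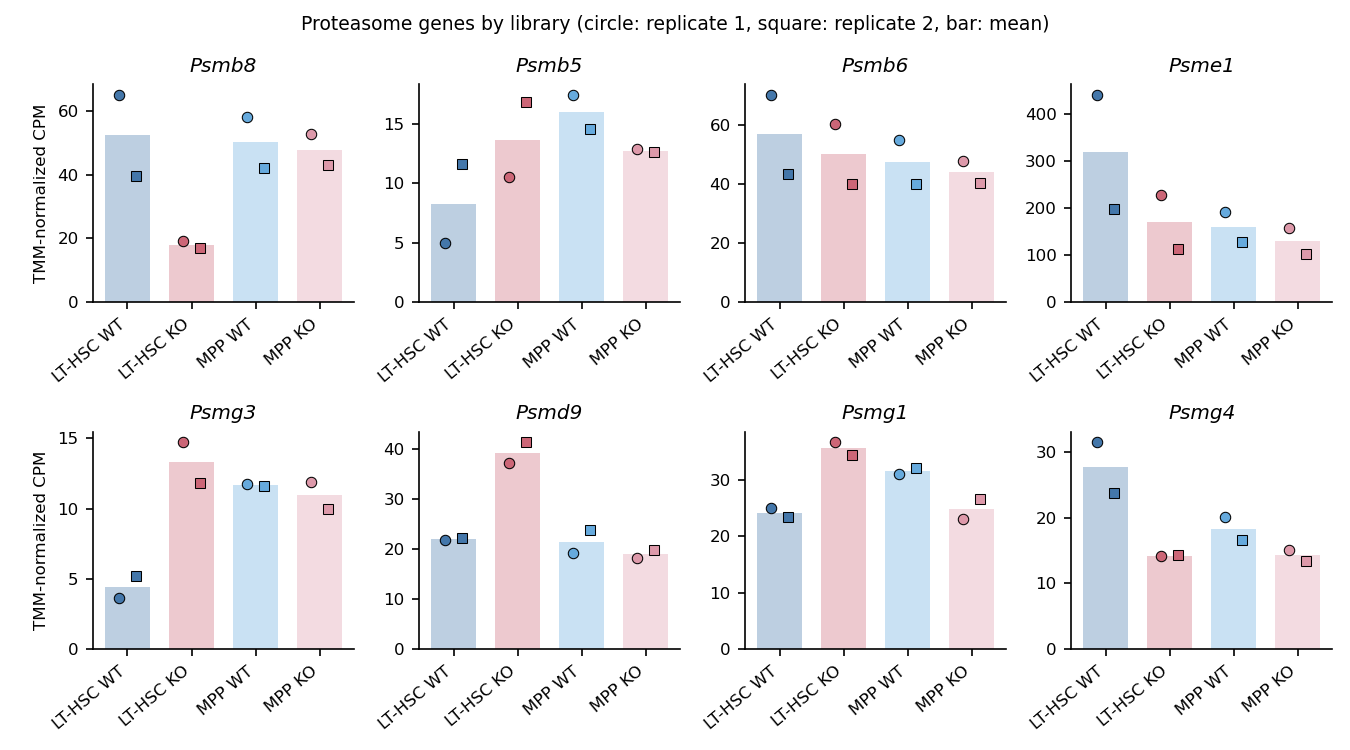
TMM-normalized CPM of 8 proteasome genes by group, with a circle for replicate 1, a square for replicate 2 and a bar for the mean of 2 libraries. Psmb8 lies at 16.9 and 19.1 CPM in LT-HSC KO and at 39.7 to 65.1 in the other groups, and Psme1 is higher in replicate 1 than in replicate 2 of every group.

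No activator gene passed the test in LT-HSC. Psme1, a PA28 subunit induced by interferon, was at 227 and 112 CPM in KO and 440 and 197 in WT. The groups overlapped, since KO replicate 1 was above WT replicate 2 (-0.91, SE 0.40, adjusted p = 0.121). Without LT-HSC WT replicate 2 the log2 fold change of Psme1 was -1.42. That fit leaves replicate 1 as the lone WT library, and Psme1 was higher in replicate 1 of every group. Psme1 is called lower in the authors' deposited table (-0.91, FDR 0.0128), which calls 27.5% of its LT-HSC genes higher and 8.47% lower. Psme2, the partner of Psme1 in PA28, was at 13.003 and 10.9 CPM in KO and 9.74 and 13.2 in WT (0.06, SE 0.33), and its gene lies 5911 bp from Psme1. Psme3, which forms the nuclear PA28 ring, was at 250 and 247 in KO and 236 and 202 in WT (0.18, SE 0.16). Psme4, the PA200 activator, was at 175 in both KO libraries and at 153 and 155 in WT (0.18, SE 0.15). For Psme3 and Psme4 the KO libraries were above both WT libraries by a margin that did not pass the test. Psmf1, an inhibitor of the core, was above 0 in LT-HSC KO (log2 fold change 0.47, SE 0.19, adjusted p = 0.0939).

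Among the 7 assembly chaperones, 2 were higher, 1 was lower and 4 did not pass the test in LT-HSC, with a median of 0.40. That is 3 of 7 called, beside 33.4% of all genes (22.5% higher and 10.9% lower). Psmg3 (chromosome 5, 140299548 to 140302797) encodes the partner of Psmg4 in a dimer that helps build the alpha ring. It had 77 and 61 counts in KO and 19 and 27 in WT, or 14.7 and 11.8 CPM against 3.63 and 5.22 (1.58, SE 0.38, adjusted p = 0.0135). Psmg4 (chromosome 13, 34254833 to 34270041) had 74 counts in both KO libraries and 165 and 123 in WT, or 14.2 and 14.3 CPM against 31.5 and 23.8 (-0.96, SE 0.26, adjusted p = 0.0221). The partners therefore moved in opposite directions. Psmd9 (chromosome 5, 123678199 to 123700140), a chaperone of the 19S base, was at 37.1 and 41.3 CPM in KO and 21.8 and 22.2 in WT (0.83, SE 0.21, adjusted p = 0.0167). It shares 2682 bp with Gm17627 on the opposite strand, whose log2 fold change was 0.03, and strand-specific counting is not stated. Psmg1 and Psmg2, which pair with each other, had 0.56 (SE 0.21, adjusted p = 0.0746) and 0.40 (SE 0.19, adjusted p = 0.137). The Psmg3 call ended without LT-HSC KO replicate 1 (adjusted p = 0.139) and the Psmd9 call without KO replicate 1 (0.097) or 2 (0.152). The Psmg4 call ended without LT-HSC WT replicate 1 (0.0608), KO replicate 1 (0.147) or KO replicate 2 (0.119), with background subtracted (0.0769) and with TMM from abundant genes (0.0529).

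The constitutive 20S and 19S subunits gave no call in LT-HSC. Of the 14 core genes without Psmb8, 5 were above 0 and 9 below, with a median of -0.13 and a range from -0.57 (Psma4) to 0.72 (Psmb5). Of the 17 subunits of the 19S cap, 10 were above 0 and 7 below, with a median of 0.10 and a range from -0.38 (Psmd2) to 0.50 (Psmd14, the deubiquitinase of the cap). At an unadjusted p under 0.05 there was 1 core gene and 1 cap gene in edgeR, and 8 of all 47 members. The split around 0 depends on scaling: over all members 26 were above 0 and 21 below, but 35 and 12 with TMM from abundant genes, which moved the median of all genes to 0.21. With background reads subtracted it was 33 and 14. Leaving out LT-HSC WT replicate 2 or KO replicate 1 turned the members' median to -0.15 and -0.12.

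**Figure D3:**
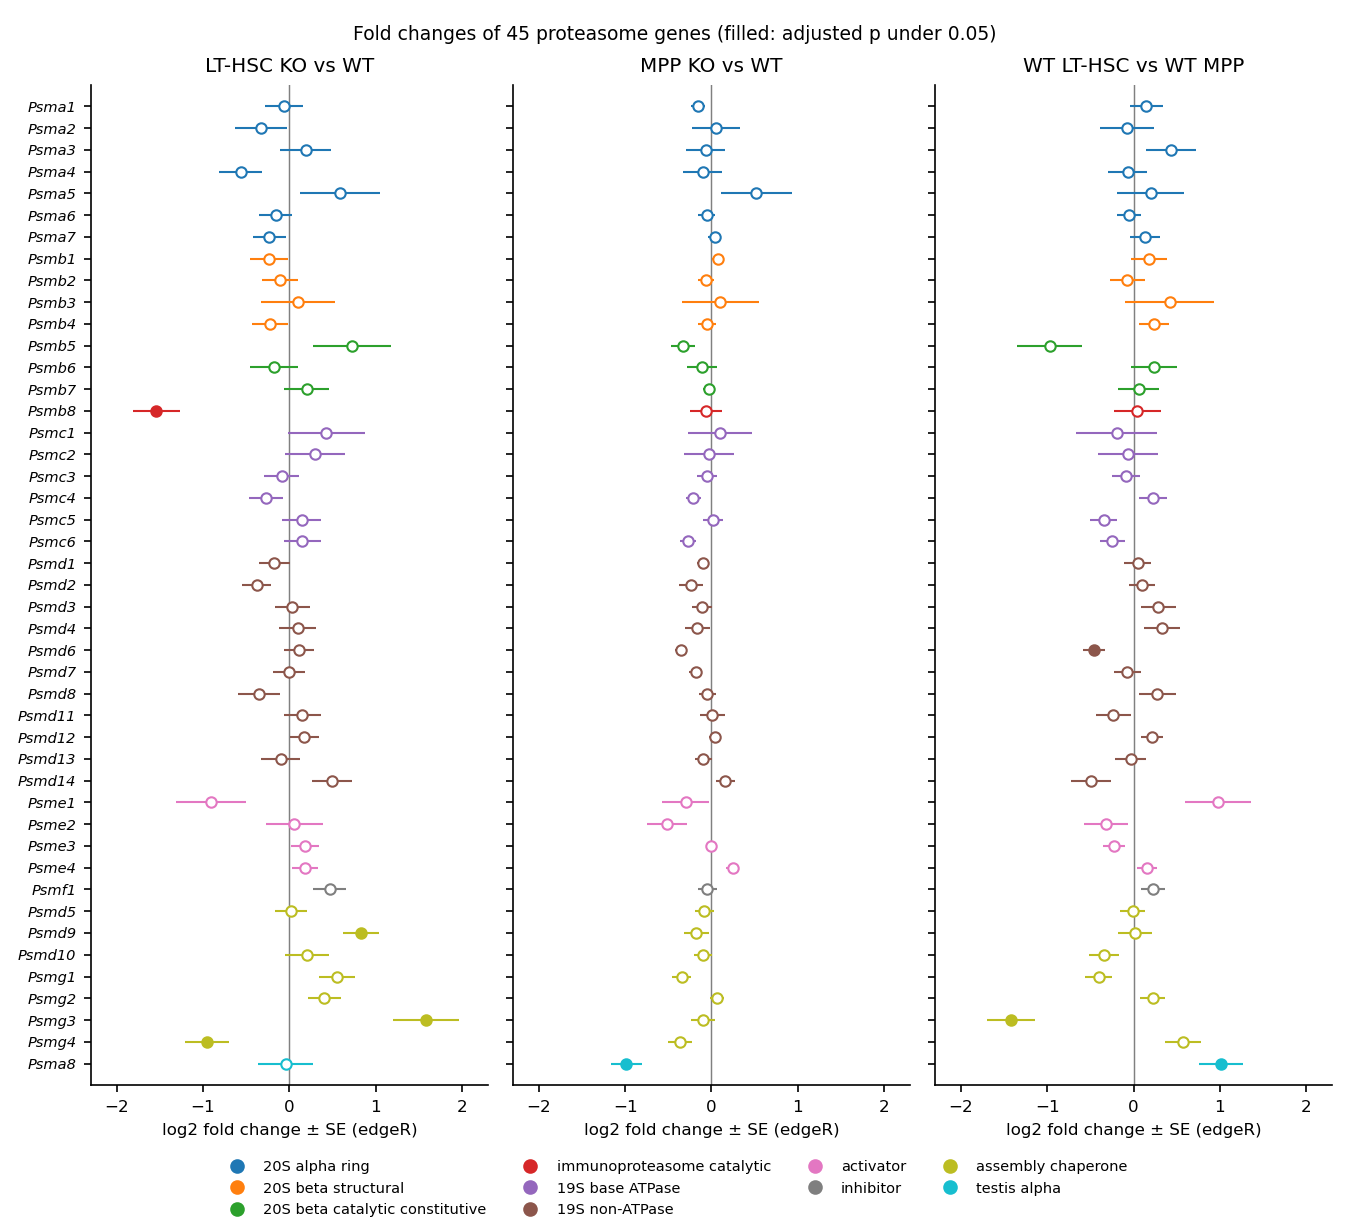
Log2 fold change ± SE (edgeR) of 45 proteasome genes in LT-HSC KO against WT, MPP KO against WT and WT LT-HSC against WT MPP, with colour for role and filled circles for an adjusted p under 0.05. Most genes lie near 0, and the filled circles are 4 genes in the first comparison, 1 in the second and 3 in the third.

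In MPP, KO against WT gave no member higher and 1 of 47 lower, Psma8, while 4.74% of all 14902 genes tested were higher and 2.46% lower, 7.2% together. Beside the 0 higher in edgeR, DESeq2 also gave 0, and 6 members had an unadjusted p under 0.05 in either direction. Psma8, the testis-specific alpha subunit, had 36 counts in both KO libraries and 71 and 74 in WT, or 2.95 and 2.995 CPM against 5.79 and 6.01 (-0.99, SE 0.18, adjusted p = 0.0424). The call ended in DESeq2 (adjusted p = 0.204), with no filter on low counts (0.0601), with all 8 libraries in 1 fit (0.0695) and without any 1 library (0.154 to 0.325). Psma8 is lower in the authors' deposited table as well (-0.998, FDR 0.0204), which calls 5.32% of its MPP genes higher and 2.58% lower. Background at the density above would make up 22.5% to 23.0% of its KO counts and 11.8% to 12.3% of its WT counts.

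Psmb8 did not pass the test in MPP, at 52.8 and 42.9 CPM in KO and 58.2 and 42.0 in WT, with groups that overlapped (-0.07, SE 0.19, adjusted p = 0.869). Psmb5 was at 12.9 and 12.6 CPM in KO and 17.5 and 14.6 in WT (-0.33, SE 0.13, adjusted p = 0.202). Psmb6 was at 47.6 and 40.2 in KO and 54.7 and 40.02 in WT, and Psmb7 at 81.0 and 78.6 in KO and 82.3 and 80.3 in WT. All 3 constitutive catalytic genes were below 0, and none passed. Psme1 was at 157 and 102 in KO and 190 and 128 in WT (-0.30, SE 0.27), and Psme2 at 7.87 and 11.8 in KO and 12.6 and 15.6 in WT (-0.52, SE 0.23, adjusted p = 0.238). Psme3 was at 252 in both KO libraries and at 254 and 251 in WT. Psme4 was at 156 and 168 in KO and 132 and 141 in WT (0.25, SE 0.08, adjusted p = 0.124). Over the members, 12 were above 0 and 35 below, with a median of -0.08 against -0.01 over all genes. With total counts alone as the scaling, that median of all genes moved to -0.08, and the split was 5 and 42.

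The difference between the populations in their KO against WT fold changes was tested over all 8 libraries. It passed for 4 of 47 members, 3 higher in LT-HSC and 1 lower, where 13.6% and 8.5% of 16551 genes passed, 22.1% together. Psmb8 had a difference (LT-HSC minus MPP) of -1.48 (SE 0.35, adjusted p = 0.0213). Psmg3 had 1.67 (SE 0.34, adjusted p = 0.0131), Psmd9 had 1.00 (SE 0.23, adjusted p = 0.0198) and Psmg1 had 0.90 (SE 0.19, adjusted p = 0.0146). The higher genes are all assembly chaperones, and 3 of the 7 chaperones passed. Psmg1 passed although neither population did on its own: in LT-HSC it was at 36.7 and 34.5 CPM in KO and 25.0 and 23.4 in WT, and in MPP at 23.0 and 26.7 in KO and 31.1 and 32.1 in WT. The other chaperone with a call in LT-HSC, Psmg4, had -0.60 (SE 0.27, adjusted p = 0.142). None of the 14 core genes without Psmb8 and none of the 17 cap genes passed in edgeR, with 0 and 1 at an unadjusted p under 0.05. The Psmb8 difference lost its call with background subtracted (adjusted p = 0.0637) and without LT-HSC KO replicate 1 (0.0675), LT-HSC KO replicate 2 (0.0766), MPP WT replicate 2 (0.0767) or MPP KO replicate 1 (0.0861). That of Psmg3 was lost without MPP WT replicate 2 (0.0556). That of Psmd9 was lost without LT-HSC KO replicate 2 (0.0575), MPP WT replicate 2 (0.0992), MPP KO replicate 1 (0.0698) or MPP KO replicate 2 (0.0585), and that of Psmg1 without MPP WT replicate 1 (0.0555), MPP WT replicate 2 (0.0762) or MPP KO replicate 1 (0.0699).

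The comparison of WT LT-HSC with WT MPP asks how proteasome genes differ between stem cells and progenitors. It shares the LT-HSC WT and MPP WT libraries with the comparisons above, and the populations differ in cells per library and depth, which cannot be told apart from cell type. All 7 B lineage and all 6 granulocyte and monocyte genes tested were lower in WT LT-HSC, and all 4 megakaryocyte genes were higher. Of 11 erythroid genes, 3 were higher and 3 lower. Of 18 long genes of neurons tested, 11 were higher and 0 lower. The part of these differences in the calls below was not tested, apart from the subtraction of background reads. Of 47 members, 1 was higher in LT-HSC and 2 lower, while 17.4% and 16.9% of 14660 genes were, 34.3% together. Psmg3 was at 3.48 and 5.20 CPM in LT-HSC and 12.1 and 11.97 in MPP, scaled over all 8 libraries (-1.42, SE 0.28, adjusted p = 0.0125). Psmd6, a 19S lid subunit, was at 50.2 and 49.3 against 70.1 and 72.3 (-0.46, SE 0.13, adjusted p = 0.0366). Psma8 was at 13.02 and 10.6 against 5.95 and 6.20 (1.01, SE 0.25, adjusted p = 0.0258). These 3 genes had no overlap between the groups, but they were named because they passed the test. The share of all genes without overlap was not determined, so this adds no support. All 3 calls ended without MPP WT replicate 1 or 2, with adjusted p of 0.0696 and 0.0721 for Psmg3, 0.278 and 0.361 for Psmd6 and 0.224 and 0.193 for Psma8. The calls of Psmd6 and Psma8 also ended in DESeq2 (0.0801 and 0.0511).

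Psmb8 was at nearly the same mean in both WT populations, 62.5 and 39.5 CPM in LT-HSC and 59.9 and 43.4 in MPP (0.04, SE 0.27, adjusted p = 0.914). Psmb5 was at 4.77 and 11.6 in LT-HSC and 17.9 and 15.1 in MPP (-0.97, SE 0.38, adjusted p = 0.0938). Without LT-HSC WT replicate 2, which leaves replicate 1 as the lone LT-HSC library, its log2 fold change was -1.75. The difference in the mean log2 ratio of Psmb8 to Psmb5 was 1.11 between the WT populations, from 3.71 and 1.77 in LT-HSC and 1.74 and 1.52 in MPP (exact two-sided permutation test, p = 0.333, the smallest possible). Psme1 was at 422 and 196 in LT-HSC and 196 and 132 in MPP (0.98, SE 0.38, adjusted p = 0.0954). Psme1 passed in DESeq2 (0.96, adjusted p = 0.0132). It also passed without LT-HSC WT replicate 2 and without MPP WT replicate 1. Each of those fits rests on a lone library in 1 population, and Psme1 was higher in replicate 1 of every group. For Psmb7 the log2 fold change was 0.35 without LT-HSC WT replicate 2, again from a lone LT-HSC library. Psme2, Psme3 and Psme4 had -0.32, -0.22 and 0.15 and did not pass. Over the members the median was 0.04 against 0.02 for all genes, with 25 above 0 and 22 below. Leaving out LT-HSC WT replicate 1 turned that median to -0.13.

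Genes that work with the proteasome but fall outside the naming rule were followed in fixed lists. Of 9 antigen processing and interferon genes, 5 were lower and none higher in LT-HSC KO, beside 10.9% and 22.5% of all genes, and the list's median was -0.60 against 0.03. These were Irf1 (-1.29, SE 0.24), a transcription factor of the interferon response, and Nlrc5 (-0.86, SE 0.17), the activator of MHC class I genes. The others were Tap1, Tapbp (-0.78, SE 0.18), which loads MHC class I, and Erap1 (-0.60, SE 0.15), which trims its peptides. Psmb8 thus fell in the same libraries as 5 of these genes, while Psme1 and Psme2, also inducible by interferon, did not pass. The count of 5 became 3 with background reads subtracted and 2 without LT-HSC KO replicate 1 or without KO replicate 2. In MPP, 0 of the 9 passed in edgeR and DESeq2, with 3 at an unadjusted p under 0.05, and 3 were lower with total counts alone. The difference between populations passed for 4, all lower in LT-HSC, where 8.5% of all genes were lower: Tap1 (-0.88), Irf1 (-1.01), Nlrc5 (-0.68) and Tapbp (-0.86). It passed for Tap1 alone with background subtracted, or without either MPP WT library or MPP KO replicate 1. Between the WT populations, Nlrc5 (1.16, SE 0.14) and Tap1 (0.55, SE 0.11) were higher in LT-HSC, as were 17.4% of all genes. That count of 2 became 1 without either MPP WT library and 4 without LT-HSC WT replicate 2.

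Few genes of the other lists passed the test. Of 10 proteasome parts and partners missed by the rule, 1 was lower in LT-HSC KO, Zfand5 (-0.50, SE 0.17), a stimulator of the proteasome, and none was higher, beside 10.9% and 22.5% of all genes. Akirin2, which carries proteasomes into the nucleus, and Uchl5, a deubiquitinase of the cap, were lower in WT LT-HSC than in WT MPP (-0.72, SE 0.16, and -0.51, SE 0.15), which makes 2 of 10 lower beside 16.9% of all genes. Both shares of lower genes lie near those of all genes. The difference between populations passed for Akirin2 (0.72, SE 0.21), which is 1 of 10 higher beside 13.6% of all genes. Among 5 regulators of proteasome gene expression, Ddi2, the protease that activates the transcription factor Nfe2l1, was higher in LT-HSC KO (0.59, SE 0.16). That is 1 of 5 higher and 0 lower, beside 22.5% and 10.9% of all genes. Ddi2 was also lower in WT LT-HSC than in WT MPP (-0.43, SE 0.13), 1 of 5 beside 16.9% of all genes. That comparison shares the LT-HSC WT libraries. Nfe2l1 itself had -0.46 (SE 0.16, adjusted p = 0.0568) in LT-HSC. None of the 8 shuttle and extraction genes or the ubiquitin precursors passed in a KO against WT comparison, with 3 of the latter tested in LT-HSC and 4 in MPP. At an unadjusted p under 0.05 there were 1 shuttle gene and 1 precursor in LT-HSC and 2 and 0 in MPP. The median over the precursors was -0.33 in LT-HSC, with all 3 below 0, and 0.24 in MPP, with all 4 above 0. The difference between populations passed for Ufd1l (-0.59, SE 0.17), an adaptor that extracts ubiquitinated proteins, and for Ubb (-0.53, SE 0.16), a ubiquitin gene. These are 1 of 8 shuttle genes and 1 of 4 precursors lower, beside 8.5% of all genes.

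Much of the spread of the members ran with the replicate number. In 32 of 47 members (68.1%) the difference between replicate 1 and replicate 2, in log2(CPM + 0.5), had the same sign in all 4 groups, as it had in 43% of 16551 genes. Replicate 1 was higher in 20 of them and replicate 2 in 12. The difference was over 0.5 in all 4 groups for 5 members, where 2.3% of all genes passed that limit. For Psme1 it was 1.11 in LT-HSC WT, 0.96 in LT-HSC KO, 0.57 in MPP WT and 0.65 in MPP KO. For Psmc2, a 19S ATPase, it was 0.64 to 0.91, again with replicate 1 higher. Psmc1, another ATPase of the same ring, went the other way, from -1.43 in LT-HSC WT to -0.78 in MPP WT. Psmb3 (-1.27 to -0.75) and Psma5 (-1.20 to -0.67), both of the 20S core, were also higher in replicate 2. Subunits of 1 complex thus differed between replicates in opposite directions, and the sources used here do not say what the replicate number marks. For Psmb8 the differences were 0.66, 0.12, 0.46 and 0.32, smaller than its LT-HSC KO against WT difference.

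**Figure D4:**
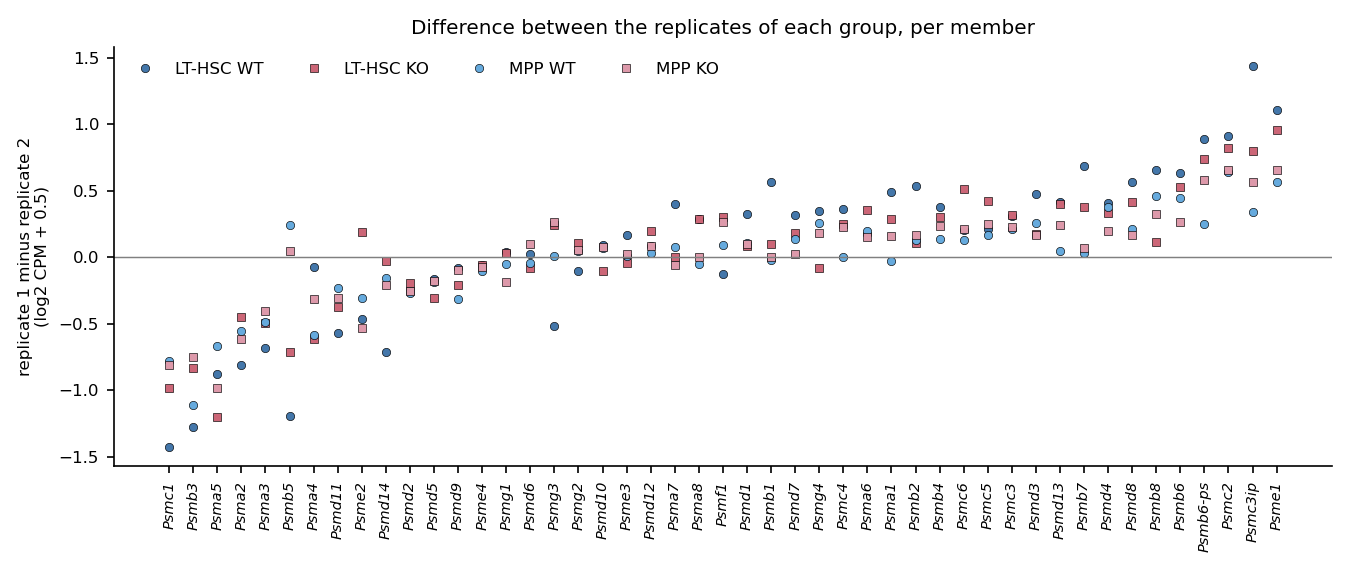
Difference between replicate 1 and replicate 2, as log2(CPM + 0.5), for 47 members in each of the 4 groups, ordered by the mean difference. Psmc1, Psmb3 and Psma5 lie below -0.5 and Psmc2 and Psme1 above 0.5 in all 4 groups.

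The members that are not working proteasome genes gave no call. Psmc3ip, the recombination factor, had 83 and 44 counts in LT-HSC KO and 53 and 17 in WT (0.86, SE 0.54, adjusted p = 0.262). In MPP it had 153 and 102 in KO and 185 and 145 in WT. Psmb6-ps had 67 and 43 counts in MPP KO and 76 and 63 in WT. Psmb5-ps, listed for MPP alone, had 3 and 1 counts in KO and 3 and 8 in WT, too few to be tested. A count of 0 in these libraries allows up to 0.547 to 0.603 CPM in LT-HSC and 0.24 to 0.251 CPM in MPP, taking 3 counts as the floor.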

How the data were processed

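RNA was measured in 8 libraries, 2 per group. The submitters' processing notes name CASAVA, TopHat and the mm9 build; the sources used here do not give versions, the read counter or the annotation. For each population the authors deposited a table of raw counts, with a count per gene and library. The authors also deposited a log2 fold change, a p-value and an FDR per gene, per the file headers. Each count column was assigned through the genotype and replicate in its name, with 0 columns of values per sample left unmatched. LT-HSC libraries held 4976459 to 5479731 counts and MPP libraries 11928659 to 12504581. Floors at 0 cover counting error only.

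The deposited counts were tested with edgeR 4.0.16 in R 4.3.3: filterByExpr, TMM and the quasi-likelihood test. A gene was called at an adjusted p under 0.05 (Benjamini-Hochberg, over all genes tested). The fits used the 4 libraries of a population, the 4 WT libraries or all 8 (the difference between populations). SE is the fold change over the square root of the F statistic. The fits were also run on simulated counts, with independent libraries and a spread estimated from these data. That run checks the code only, since replicate differences in these data correlated between groups. CPM per kb used the longest protein-coding transcript in GENCODE M21. Coordinates are those of the tables on mm9, and promoter windows are RefSeq's on GRCm38.p6. DESeq2 1.42.0, other scalings, no filter, subtracted background reads, left-out libraries, a replicate block and a fit of all 8 libraries were alternatives.

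The members and lists were chosen with earlier results of these data known. 1 gene of the antigen processing and interferon list is not reported here and was left out of its counts, and 2 of its other 11, Tapbpl and B2m, were not analysed here. Named with values in every library were the catalytic beta genes, Psme1 to Psme4, every member called (at most 8 per direction) and members at 10 counts or fewer in every library. Psmg1 in single populations, Psmc1, Psmc2, Psmb3, Psma5 and genes at the ends of ranges were named after their values were seen.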

Additional observations from a re-analysis of the deposited data

Results flagged for a closer look

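The KO against WT log2 fold change differed between LT-HSC and MPP by the test of the difference itself (edgeR, 8 libraries, LT-HSC minus MPP) for 4 members. For Psmb8 the difference was -1.48 (adjusted p = 0.0213), from -1.54 in LT-HSC and -0.07 in MPP. For Psmg3 it was 1.67 (adjusted p = 0.0131), from 1.58 and -0.09. For Psmd9 it was 1.00 (adjusted p = 0.0198), from 0.83 and -0.17. For Psmg1 it was 0.90 (adjusted p = 0.0146), from 0.56 and -0.35, neither of which passed on its own. Erythroid, stromal, megakaryocyte, granulocyte and background read levels also differed between the genotypes in LT-HSC. Their part in these differences was not tested beyond the subtraction of background reads. With that subtraction the Psmb8 difference no longer passed (-1.30, adjusted p = 0.0637). The subtraction also changed the genes fitted and the scaling, and the median difference over all 47 members moved from 0.12 to 0.29. How much of the Psmb8 shift came with that was not tested.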

How the results depend on the processing

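With 2 libraries per group, leaving out 1 leaves an arm with a lone library, assumed to vary like the others. Leaving out each library in turn gave 0 to 6 members higher and 1 to 5 lower in LT-HSC KO, and 0 lower in MPP KO. It gave 0 to 10 higher and 0 to 5 lower between the WT populations, and 0 to 5 higher and 0 to 3 lower for the difference between populations. With TMM from abundant genes, 5 members were higher and 1 lower in LT-HSC KO, and 5 were higher for the difference. With background reads subtracted, 1 was lower in LT-HSC KO and 0 for the difference. With all 8 libraries in 1 fit, 5 were higher in LT-HSC KO and 0 lower in MPP KO. DESeq2 gave 0 lower in MPP KO and 1 lower between the WT populations. In MPP KO, total counts alone gave 2 lower and no filter gave 0. The Psmb8 to Psmb5 difference ran from -3.28 to -1.34 in LT-HSC, 0.13 to 0.41 in MPP and 0.14 to 2.08 between the WT populations when 1 library was left out. No called member changed sign, in the comparison where it was called, in the alternatives run. Some without a call did, such as Psmb6 in LT-HSC KO and Psmb8 in MPP KO. The members' median changed sign in LT-HSC KO without LT-HSC WT replicate 2 (-0.15) or KO replicate 1 (-0.12), and between the WT populations without LT-HSC WT replicate 1 (-0.13). The ratios with Psmb9 and Psmb10 were not run. The cause of these shifts was not tested. The lower depth of LT-HSC limits the genes of low count, such as Psmg3 and Psmb5.

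The labels number the replicates 1 and 2 in every group, without saying what a number marks, so the main fits did not use it. The differences between replicates correlated between groups at 0.418 to 0.613 over all genes and 0.779 to 0.911 over the members. With the replicate number as a block, 12 members were higher and 7 lower in LT-HSC KO, 3 and 16 in MPP KO, 5 and 6 between the WT populations, and 9 and 3 for the difference between populations. Psme1 was then lower in LT-HSC KO (adjusted p = 2.68e-09). These member counts, and those of the other alternatives above, stand without the share of all genes called in the same setting. They show how calls shift with the processing and are not read as results about the members. Of the 9 antigen processing and interferon genes, the block gave 1 higher and 8 lower in LT-HSC KO, 3 and 4 in MPP KO, 4 and 2 between the WT populations, and 0 and 8 for the difference. These list counts, and those of the list in the other alternatives above, also stand without the share of all genes called in the same setting. They are not read as results about the list.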
